A study of Mus musculus with 47 samples.

Results

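Striatal neuropeptide precursors and opioid receptors were followed in 47 RNA samples of mouse striatum as 10 genes out of the 48795 in the deposited count table. The 6 precursor genes were Penk, Pdyn, Tac1, Nts, Cartpt and Cck, and the 4 receptor genes were Oprm1, Oprd1, Oprk1 and Oprl1. They were taken by gene name. The list was drawn up with earlier results of these data known, so its counts of called genes describe these genes and are no independent evidence. All 10 passed the filter on low counts, which 19193 genes passed in all.

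The mice were 6 months old, of the strain background given as C57BL, and RNA of their dissected striatum was sequenced. Q140 is a knock-in allele of the mouse Huntington's disease gene Htt with an expanded CAG repeat, and Ccdc82 is a gene whose loss was crossed into it. The groups were Q140 (n = 8), Q140 Ccdc82+/- (n = 8) and Q140 Ccdc82-/- (n = 7), with wild type (n = 8), Ccdc82+/- (n = 8) and Ccdc82-/- (n = 8) as their controls. Each group held 4 female and 4 male samples, apart from Q140 Ccdc82-/- with 3 female and 4 male samples. The labels do not state that each sample is a separate animal, so n counts samples throughout. All Q140 mice were heterozygous for the knock-in, per their labelled genotype, and the construction of the Ccdc82 allele is not given in the sources used here.

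Total counts ranged from 41327333 to 61701245 per library. Ccdc82 had a median of 4.47 CPM, counts scaled to the size of the library, in Q140 Ccdc82-/- striata and 4.39 in Ccdc82-/- striata, against 11.6 in Q140 and 12.3 in wild type, so its counts fell but did not vanish. The Ccdc82 heterozygotes stood between, with medians of 8.56 CPM in Q140 Ccdc82+/- and 8.49 CPM in Ccdc82+/- striata. All 8 shared markers of spiny projection neurons had counts in every library. Their summed level was 7907 to 9508 CPM in Q140 and 11990 to 13020 CPM in wild type striata.

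The projection neurons of the striatum make peptides alongside GABA. Neurons of the indirect pathway, which carry the dopamine receptor Drd2, make enkephalins from the Penk precursor, and neurons of the direct pathway make dynorphins from Pdyn and substance P from Tac1. Enkephalins act mainly at the delta and mu opioid receptors (Oprd1 and Oprm1), dynorphins at the kappa receptor (Oprk1), and nociceptin at the related receptor Oprl1, all of which couple to inhibitory G proteins. A low level of striatal enkephalin mRNA is a long-known feature of Huntington's disease and its mouse models.

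All 10 are protein-coding genes, placed here by the GRCm38 gene annotation. The precursors are Penk at chr4:4133531-4138819, Pdyn at chr2:129686565-129699844, Tac1 at chr6:7554879-7565834, Nts at chr10:102481756-102490486, Cartpt at chr13:99898489-99901091 and Cck at chr9:121489824-121495694, of which Tac1 lies on the plus strand and the others on the minus strand. The receptors are Oprm1 at chr10:6758506-7038198, Oprd1 at chr4:132110726-132144486, Oprk1 at chr1:5588466-5606131 and Oprl1 at chr2:181715016-181720985, of which Oprd1 lies on the minus strand and the others on the plus strand.

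Several of these precursor genes are known as targets of cyclic AMP and activity signals, so the bases before the start site are shown for the 4 precursor genes that passed the Q140 test and hold a cyclic AMP response element or AP-1 sequence there. RefSeq windows of the GRCm38.p6 build, from 250 bases before to 50 bases after an annotated start, were found for 8 of the 10 members, all but Penk and Oprk1. The 250 bases before the start are printed 5′ to 3′ on the strand of the gene, and capitals mark matches on either strand.
Tac1: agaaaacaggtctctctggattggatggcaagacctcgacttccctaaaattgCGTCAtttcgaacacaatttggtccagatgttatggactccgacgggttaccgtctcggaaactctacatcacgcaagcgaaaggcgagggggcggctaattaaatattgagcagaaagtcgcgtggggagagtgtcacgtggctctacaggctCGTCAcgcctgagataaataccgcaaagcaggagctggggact
Nts: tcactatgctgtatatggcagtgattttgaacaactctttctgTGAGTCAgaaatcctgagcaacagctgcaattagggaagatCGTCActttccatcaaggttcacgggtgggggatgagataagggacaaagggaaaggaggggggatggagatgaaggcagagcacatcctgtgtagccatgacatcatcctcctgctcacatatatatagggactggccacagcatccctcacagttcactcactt
Cartpt: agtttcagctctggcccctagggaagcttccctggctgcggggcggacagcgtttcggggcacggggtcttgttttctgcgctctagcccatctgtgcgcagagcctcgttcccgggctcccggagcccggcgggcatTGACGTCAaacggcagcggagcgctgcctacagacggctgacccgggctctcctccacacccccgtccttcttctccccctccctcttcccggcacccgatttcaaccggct
Cck: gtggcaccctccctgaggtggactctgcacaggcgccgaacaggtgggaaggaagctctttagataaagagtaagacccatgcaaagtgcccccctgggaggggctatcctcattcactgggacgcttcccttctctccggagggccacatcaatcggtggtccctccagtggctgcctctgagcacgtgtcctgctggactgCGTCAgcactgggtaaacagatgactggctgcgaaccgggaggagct
These starts are those of RefSeq and can differ from the gene ends given above, so that the Cartpt stretch lies wholly, and the Tac1 and Nts stretches partly, within the genes as placed there. The Tac1 stretch lies at chr6:7554811-7555060 on the plus strand. The others lie on the minus strand, Nts at chr10:102490419-102490668, Cartpt at chr13:99900684-99900933 and Cck at chr9:121495695-121495944. Matches to CGTCA, the core of the cyclic AMP response element, began 197 and 43 bases before the start of Tac1, 166 bases before that of Nts and 47 bases before that of Cck. The full element TGACGTCA, which contains the shorter core on both strands, began 112 bases before the start of Cartpt. An AP-1 match of the form TGANTCA began 207 bases before the start of Nts. The windows of the other members that had any, Pdyn, Oprm1, Oprd1 and Oprl1, held none of these sequences. Among all 32851 RefSeq mouse windows, 20.8% held CGTCA, 1.79% held TGACGTCA and 7.81% held TGANTCA on either strand. These shares are over whole windows with the 50 bases after the start, which the printed stretches leave out. A match is a run of letters and not a measured binding site.

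On the deposited FPKM values, fragments scaled by gene length and library size, which allow levels of different genes to be set side by side, Penk was the highest of the 10 in every group. It averaged 513 ± 39.9 FPKM in Q140 and 1006 ± 33.8 FPKM in wild type striata (SD, n = 8 each). Tac1 followed with 70.2 ± 3.38 FPKM in Q140 and 59.8 ± 1.5 FPKM in wild type, then Pdyn with 30.4 ± 3.82 and 33.5 ± 3.05 FPKM in the same order of groups. Oprd1, at 9.61 ± 0.52 FPKM in Q140 and 11.6 ± 0.61 FPKM in wild type, was the highest of the 4 receptors. Below it came Cck, Oprl1, Oprk1 and Nts, with means of 3.49 to 7.12 FPKM in Q140 and 2.15 to 4.94 FPKM in wild type, whose library ranges overlapped between each neighbouring pair in both groups. Cartpt averaged 0.61 ± 0.15 FPKM in Q140 and 1.02 ± 0.34 FPKM in wild type. Oprm1 averaged 0.71 ± 0.08 FPKM in Q140 and 0.65 ± 0.11 FPKM in wild type, so these genes traded the lowest ranks between the groups while their ranges overlapped in each. The ranges of Penk, Tac1, Pdyn and Oprd1 did not overlap with each other or with any lower gene in either group.

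**Figure D1:**
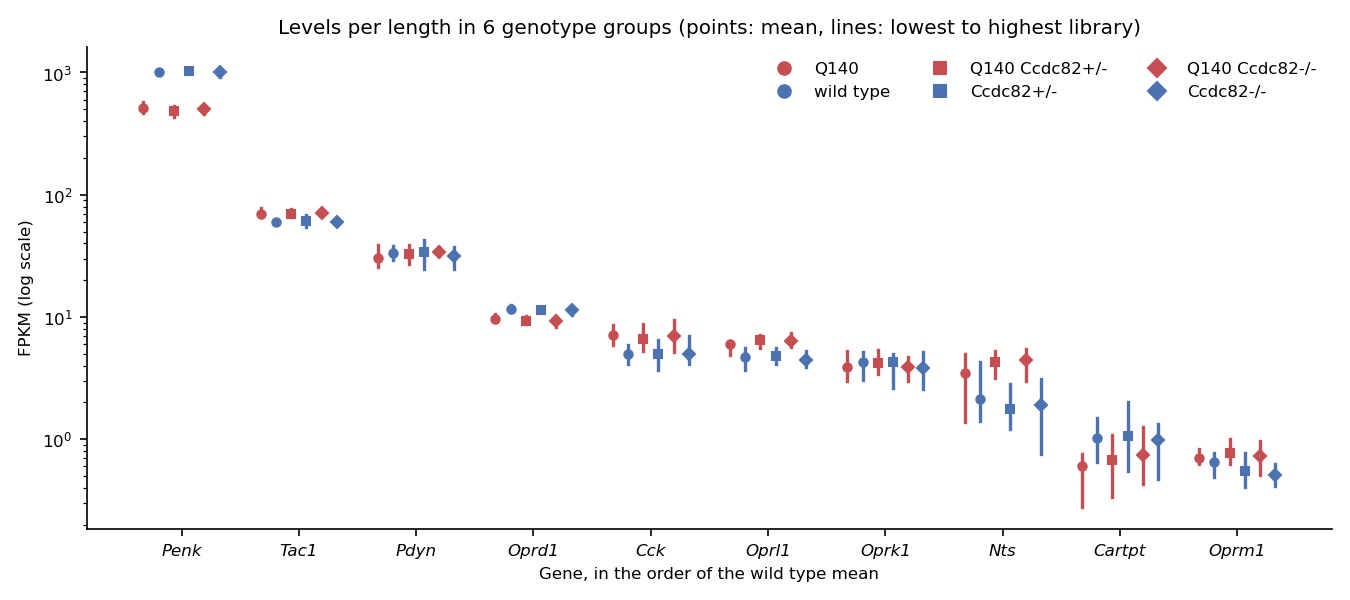
FPKM of each gene on a log axis, in the order of the wild type mean; points are group means, lines run from the lowest to the highest library, red marks groups with Q140 and blue groups without it (n = 7 or 8). Penk stands apart at 513 FPKM in Q140 and 1006 FPKM in wild type, and the 4 receptors lie between 0.65 and 11.6 FPKM in wild type.

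Q140 was compared with its control on each of the 3 Ccdc82 backgrounds by the quasi-likelihood test of edgeR with sex as a covariate, and a gene was called at a Benjamini-Hochberg adjusted p under 0.05 over all genes tested. Against wild type, 7 of the 10 genes were called, 4 higher and 3 lower, where 34.7% of all genes tested were called, 18.2% higher and 16.5% lower. On the Ccdc82+/- background 8 were called, 5 higher and 3 lower, against 35% of all genes, 18.4% higher and 16.7% lower. On the Ccdc82-/- background 7 were called, 5 higher and 2 lower, against 33.2% of all genes, 17.5% higher and 15.7% lower. With the 3 backgrounds averaged, 8 were called, 5 higher and 3 lower, against 54.3% of all genes, 28.8% higher and 25.5% lower. Penk and Oprd1 were lower and Tac1, Nts, Cck and Oprl1 were higher on all 3 backgrounds, while Pdyn and Oprk1 were called on none. The median log2 fold change of the 10 genes in the averaged comparison was 0.04, beside 0.00 over all genes, since the members moved in both directions.

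**Figure D2:**
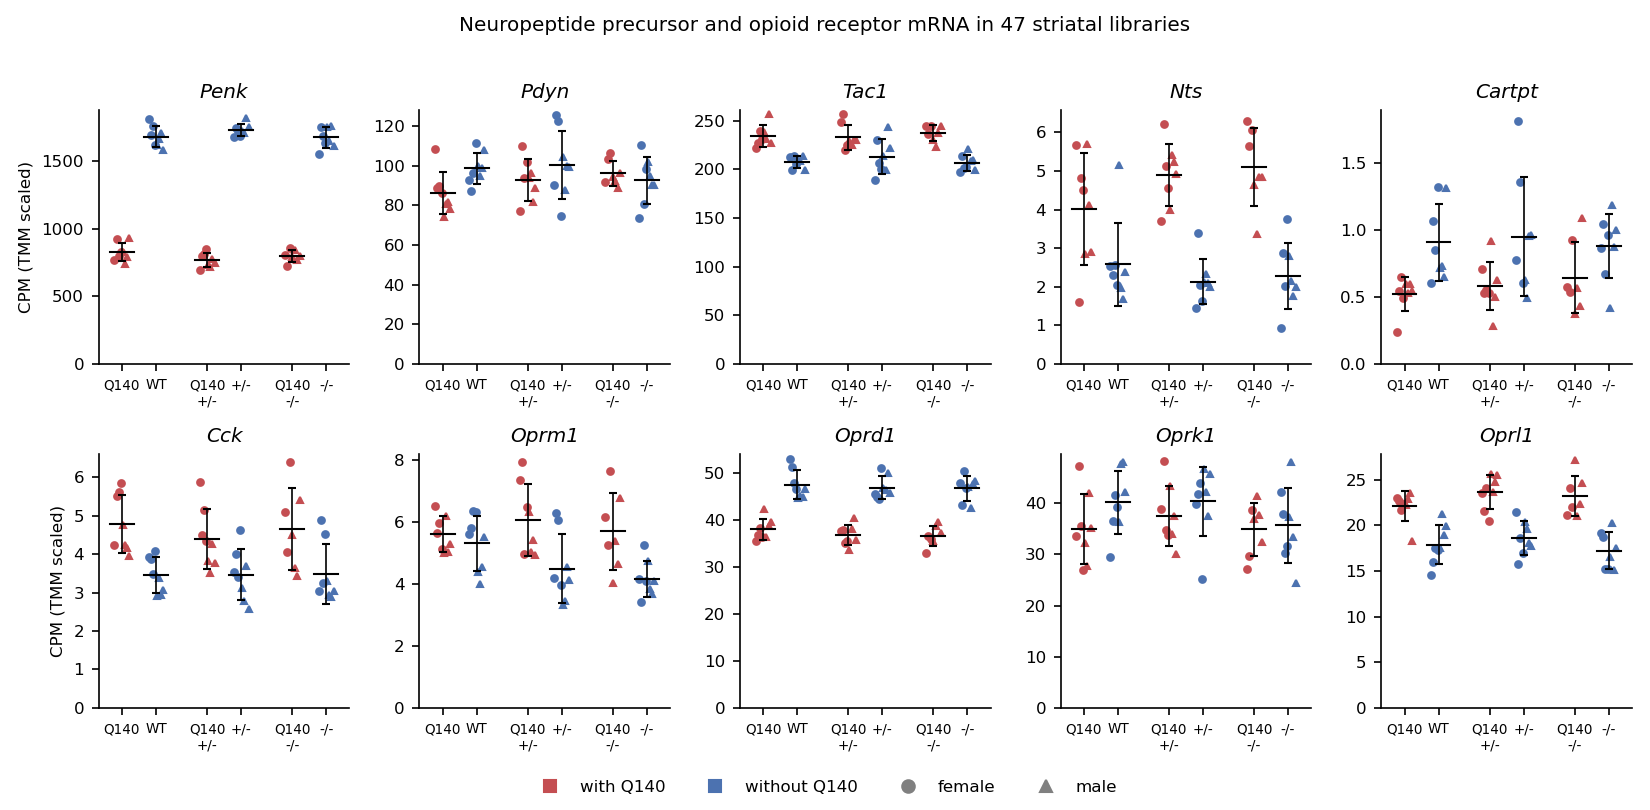
CPM of each gene in all 47 libraries on axes that start at 0; red points are groups with Q140, blue points groups without it, circles females and triangles males, with lines at the mean and bars of 1 SD. Every Penk and Oprd1 point with Q140 lies below every point of its control group, the Tac1 points of Q140 lie above those of wild type, and those of Q140 Ccdc82-/- above those of Ccdc82-/-.

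Penk, the precursor of the enkephalins, was 740.4 to 927 CPM in Q140 striata with a median of 813, against 1580 to 1813 CPM in wild type with a median of 1677. All 8 Q140 libraries lay below the lowest wild type library, and the Q140 mean was 49.1% of the wild type mean. The log2 fold change was -1.03 ± 0.04 (SE; edgeR adjusted p = 5.18e-25). The ranges were 694 to 848 CPM in Q140 Ccdc82+/- against 1675 to 1818 CPM in Ccdc82+/-, and 723 to 859 CPM in Q140 Ccdc82-/- against 1554 to 1756 CPM in Ccdc82-/-. No range overlapped, and the log2 fold changes were -1.18 ± 0.04 and -1.07 ± 0.04 on these backgrounds (edgeR adjusted p = 1.598e-27 and 6.62e-25). Bulk striatal RNA cannot tell fewer cells of a type from less RNA per cell, for Penk or for any other gene here. Exons of Penk share 233 bases with A830012C17Rik on the opposite strand, a gene at 0.304 CPM in Q140 and 0.271 CPM in wild type, and the counting is not stated to use strand.

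Ranges that do not overlap were read against all genes: 9.77% of genes had them between Q140 and wild type (4.7% higher, 5.07% lower), 10.3% on Ccdc82+/- (4.52% higher, 5.76% lower) and 9.48% on Ccdc82-/- (4.12% higher, 5.36% lower). Of the 10 members, 3 had them against wild type (Penk and Oprd1 lower, Tac1 higher), 3 on Ccdc82+/- (Penk and Oprd1 lower, Nts higher) and 4 on Ccdc82-/- (Penk and Oprd1 lower, Tac1 and Oprl1 higher).

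Tac1, the precursor of substance P and neurokinin A, was 222 to 257 CPM in Q140 with a median of 231, against 199 to 214 CPM in wild type with a median of 209. The 8 Q140 libraries all lay above the highest wild type library, although the rise was small at a log2 fold change of 0.17 ± 0.04 (edgeR adjusted p = 0.000136). On Ccdc82-/- the ranges were also apart, 223 to 245 CPM with Q140 against 197 to 221 CPM without it, with a log2 fold change of 0.20 ± 0.04 (edgeR adjusted p = 2.75e-05). On Ccdc82+/- they overlapped, 219.6 to 257 CPM with Q140 against 189 to 244 CPM without it. The log2 fold change there was 0.13 ± 0.04 (edgeR adjusted p = 0.00412), and it was 0.06 with an adjusted p of 0.433 in males alone.

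Pdyn, the precursor of the dynorphins and the second peptide gene of the direct pathway, did not pass the test on any background. It was 74.2 to 109 CPM in Q140 with a median of 83.9, against 87.2 to 112 CPM in wild type with a median of 97.5. Of the 8 Q140 libraries, 5 lay below the lowest wild type library, while Q140 female 1 had the highest Q140 value at 109 CPM. In the fitted model the difference on the log2 scale was -0.20 ± 0.08 (95% interval -0.37 to -0.03, edgeR adjusted p = 0.0612). It was -0.35 in males alone, with an adjusted p of 2.72e-05, where Q140 males averaged 78.7 ± 3.26 CPM and wild type males 100.4 ± 5.53 CPM (SD, n = 4 each). Q140 females averaged 93.4 ± 10.2 CPM and wild type females 96.9 ± 10.4 CPM (SD, n = 4 each). The difference of the Q140 effect between females and males, averaged over the 3 backgrounds, was 0.16 with a 95% interval of -0.04 to 0.36 and did not pass the test (edgeR adjusted p = 1). On Ccdc82+/- and Ccdc82-/- the log2 fold changes of Pdyn were -0.11 (95% interval -0.28 to 0.06) and 0.06 (-0.12 to 0.23). Leaving out Q140 female 1 gave -0.25 with an adjusted p of 0.0182 against wild type.

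Nts, the precursor of neurotensin, had 1.6 to 5.70 CPM in Q140 with a median of 4.31, against 1.69 to 5.15 CPM in wild type with a median of 2.34. These ranges overlapped almost wholly, with Q140 female 2 below every wild type library and wild type male 1 above all but 2 of the Q140 libraries. Q140 over wild type gave a log2 fold change of 0.63 ± 0.22 (edgeR adjusted p = 0.0234). It lost the call without either of the highest libraries, Q140 female 1 (adjusted p = 0.0611) or Q140 male 2 (adjusted p = 0.0692), and was 0.87 without wild type male 1. On Ccdc82+/- the ranges were apart, 3.70 to 6.21 CPM with Q140 against 1.44 to 3.38 CPM without it, and the log2 fold change was 1.19 ± 0.22 (edgeR adjusted p = 3.26e-05). On Ccdc82-/- 6 of 7 libraries with Q140, at 3.37 to 6.30 CPM, lay above the highest library without it, where the range was 0.92 to 3.76 CPM. The log2 fold change was 1.17 ± 0.23 there (edgeR adjusted p = 7.39e-05). The interaction terms, 0.56 on Ccdc82+/- (95% interval -0.08 to 1.2) and 0.54 on Ccdc82-/- (-0.11 to 1.18), did not pass the test (edgeR adjusted p = 0.915 and 0.998).

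Nts residuals moved with the mean log2 level of choroid plexus markers across the 47 libraries (Pearson r = 0.512 after group and sex were taken out), as a description. This was the highest r of Nts with any of the gene lists. It was 0.429 with the peptide processing genes, -0.425 with the peptide degrading enzymes and -0.42 with the shared spiny neuron markers. The choroid plexus markers summed to 26.6 to 35.1 CPM in Q140 and 22.4 to 67.7 CPM in wild type, the highest being wild type male 1. Of the 5 markers, 4 had counts in every library. With the mean log2 marker level as a covariate, added after the values were seen, the Nts log2 fold change was 0.81 against wild type (edgeR adjusted p = 0.00105), 1.14 on Ccdc82+/- and 1.29 on Ccdc82-/-. Since this covariate moved with Nts in the same libraries, these values are no independent support for the calls.

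Cartpt, the precursor of the CART peptides that are enriched in the ventral striatum, was scarce at 13 to 104 counts per library. It had 0.24 to 0.65 CPM in Q140 with a median of 0.54, against 0.60 to 1.32 CPM in wild type with a median of 0.79. Of the 8 Q140 libraries, 7 lay below the lowest wild type library. In the fitted model the difference on the log2 scale was -0.78 ± 0.25 (edgeR adjusted p = 0.0102). On Ccdc82+/- the ranges were 0.28 to 0.92 CPM with Q140 against 0.49 to 1.81 CPM without it, with a log2 fold change of -0.69 ± 0.24 (edgeR adjusted p = 0.0202). That call was lost without Ccdc82+/- female 2 (adjusted p = 0.106) or Q140 Ccdc82+/- male 2 (adjusted p = 0.0511). In males alone the value was -0.58 against wild type and -0.35 on Ccdc82+/-, neither called (adjusted p = 0.268 and 0.524). On Ccdc82-/- the ranges were 0.37 to 1.09 CPM with Q140 against 0.42 to 1.18 CPM without it, and the log2 fold change of -0.44 (95% interval -0.94 to 0.06) did not pass (edgeR adjusted p = 0.176).

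The 5 ventral striatum markers, of which 4 had counts in every library, summed to 245 to 319.8 CPM in Q140 and 216 to 326 CPM in wild type. Residuals of their mean log2 level, not of the sum, had r = 0.475 with Cartpt. With that mean log2 level as a covariate, added after the values were seen, the Cartpt log2 fold changes were -0.97 against wild type, -0.57 on Ccdc82+/- and -0.55 on Ccdc82-/- (edgeR adjusted p = 0.000431, 0.0335 and 0.0473). The list holds Drd3, whose residuals were the most like those of Cartpt of any gene (r = 0.675). Since the covariate moved with Cartpt in these same libraries, its p values are no independent support for the calls.

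Cck, the precursor of cholecystokinin, which in the forebrain is made chiefly by cortical neurons and some interneurons, was higher with Q140 on each background. It had 3.96 to 5.85 CPM in Q140 with a median of 4.50, against 2.90 to 4.08 CPM in wild type with a median of 3.44, and 7 of 8 Q140 libraries exceeded the highest wild type library. This was a log2 fold change of 0.47 ± 0.10 (edgeR adjusted p = 9.46e-05). On Ccdc82+/- the ranges were 3.52 to 5.88 CPM with Q140 against 2.57 to 4.62 CPM without it, and the log2 fold change was 0.34 ± 0.10 (edgeR adjusted p = 0.00364). On Ccdc82-/- they were 3.44 to 6.41 CPM against 2.89 to 4.89 CPM, and the log2 fold change was 0.45 ± 0.10 (edgeR adjusted p = 0.000316). Every library with Q140 lay above the median of its control group on all 3 backgrounds. In females alone the call was lost on Ccdc82+/- (0.35, adjusted p = 0.133) and on Ccdc82-/- (0.41, adjusted p = 0.0916).

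The summed level of cortical excitatory neuron markers was also higher with Q140. The 9 markers, all with counts in every library, summed to 152 to 174 CPM in Q140 against 125 to 139.7 CPM in wild type, to 152 to 161 CPM in Q140 Ccdc82+/- against 124 to 140 CPM in Ccdc82+/-, and to 147 to 165 CPM in Q140 Ccdc82-/- against 119.5 to 137 CPM in Ccdc82-/-. Averaged over the backgrounds the median log2 fold change of the list was 0.02, beside 0.00 over all genes, where 54.3% of all genes were called. The 9 values of the list ran from -0.38 to 1.18. By gene, 3 of the 9 were called higher, among them Cux2 and Lamp5 at log2 fold changes of 0.32 and 0.23, 2 lower (Rorb and Fezf2, at -0.16 and -0.19) and 4 were not called, among them Slc17a7 at -0.27. These genes were named after their values were seen, and none of them lies at either end of the range from -0.38 to 1.18. With the mean log2 level of the list as a covariate the Cck log2 fold changes were 0.48, 0.33 and 0.42 (edgeR adjusted p = 9.30e-05, 0.00526 and 0.00223). That mean is another measure than the summed level, and its residuals had r = 0.103 with Cck. The covariate therefore does not address the summed rise, whose part in the Cck values was not tested. Cck residuals had a higher r with the mean log2 level of the interneuron markers (0.451) and of the thalamus markers (0.384). Of the 8 interneuron markers, 4 were lower, none higher and 4 not called in the averaged comparison, where 54.3% of all genes were called. The part of these cells in the Cck values was not tested either.

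Among the receptors, Oprd1, the delta opioid receptor at which enkephalins act, was 35.5 to 42.3 CPM in Q140 with a median of 37.4, against 44.7 to 52.9 CPM in wild type with a median of 46.5. No Q140 library reached the lowest wild type library, and the log2 fold change was -0.32 ± 0.04 (edgeR adjusted p = 7.44e-09). On Ccdc82+/- the ranges were 33.6 to 40.3 CPM with Q140 against 44.3 to 51.0 CPM without it. On Ccdc82-/- they were 32.8 to 39.5 CPM against 42.4 to 50.4 CPM. The log2 fold change was -0.35 ± 0.04 on each of these backgrounds (edgeR adjusted p = 7.61e-10 and 2.41e-09). Oprd1 thus fell on all 3 backgrounds, as its ligand precursor Penk did.

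Oprm1, the mu opioid receptor, is known from striosomes, the patch compartment of the striatum. It had 4.99 to 6.52 CPM in Q140 with a median of 5.47, against 4.0 to 6.36 CPM in wild type with a median of 5.55. The ranges overlapped, with 1 Q140 library above the highest wild type library and none below the lowest, and the log2 fold change of 0.09 (95% interval -0.13 to 0.30) did not pass (edgeR adjusted p = 0.567). On Ccdc82+/- the range was 4.93 to 7.95 CPM with Q140 against 3.33 to 6.29 CPM without it, with 4 of 8 libraries above the highest control. In the fitted model the difference on the log2 scale was 0.43 ± 0.11 (edgeR adjusted p = 0.00116). On Ccdc82-/- the range was 4.03 to 7.65 CPM with Q140 against 3.4 to 5.25 CPM without it, and the log2 fold change was 0.47 ± 0.11 (edgeR adjusted p = 0.000849). The call was lost on Ccdc82+/- in females alone (0.38, adjusted p = 0.112) and on Ccdc82-/- in males alone (0.35, adjusted p = 0.0705). The terms that test whether the Q140 effect on Oprm1 differed from that on the wild type background were 0.35 (95% interval 0.04 to 0.65) for Ccdc82+/- and 0.38 (0.07 to 0.69) for Ccdc82-/-. Their unadjusted p values in edgeR were 0.0279 and 0.0180, and neither passed over all genes (adjusted p = 0.914 and 0.998).

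Exons of Oprm1 share 96 bases with Ipcef1 on the opposite strand, which stood at 8.27 CPM in Q140 and 4.14 CPM in wild type, and its part in the Oprm1 counts was not tested. Of 5 striosome markers, 3 were called lower, none higher and 2 not called with Q140 averaged over the backgrounds, where 54.3% of all genes were called and Oprm1 itself was higher at 0.33 ± 0.06 (edgeR adjusted p = 1.54e-05). The 3 were Sema5b, Kremen1 and Asic4, at log2 fold changes of -0.14, -0.23 and -0.18, named after their values were seen (edgeR adjusted p = 0.000232, 9.96e-10 and 5.50e-11).

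Oprl1, the nociceptin receptor, was 18.2 to 23.5 CPM in Q140 with a median of 22.5, against 14.6 to 21.2 CPM in wild type with a median of 17.5. Of the 8 Q140 libraries, 7 lay above the highest wild type library, the exception being Q140 male 4 at 18.2 CPM. This was a log2 fold change of 0.31 ± 0.07 (edgeR adjusted p = 0.000210), and in males alone it was 0.16 and not called (adjusted p = 0.214). It was 0.35 ± 0.07 on Ccdc82+/-, with 20.5 to 25.6 CPM against 15.7 to 21.5 CPM, and 0.42 ± 0.07 on Ccdc82-/-, with 21.0 to 27.1 CPM against 15.1 to 20.3 CPM (edgeR adjusted p = 2.74e-05 and 2.53e-06). Pnoc, the precursor of its peptide nociceptin, had a log2 fold change of -0.21 averaged over the backgrounds and was not called (edgeR adjusted p = 0.259). It was named after its values were seen.

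Oprk1, the kappa opioid receptor at which dynorphins act, was called on no background. It was 27.0 to 47.4 CPM in Q140 with a median of 34.3, against 29.5 to 48.1 CPM in wild type with a median of 40.5, so that the groups overlapped over nearly their whole range. The log2 fold change was -0.19 (95% interval -0.45 to 0.06) against wild type, -0.10 (-0.35 to 0.16) on Ccdc82+/- and -0.04 (-0.31 to 0.23) on Ccdc82-/- (edgeR adjusted p = 0.253, 0.594 and 0.856). The last of these was 0.03 without Ccdc82-/- male 2 and 0.04 on the deposited FPKM.

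**Figure D3:**
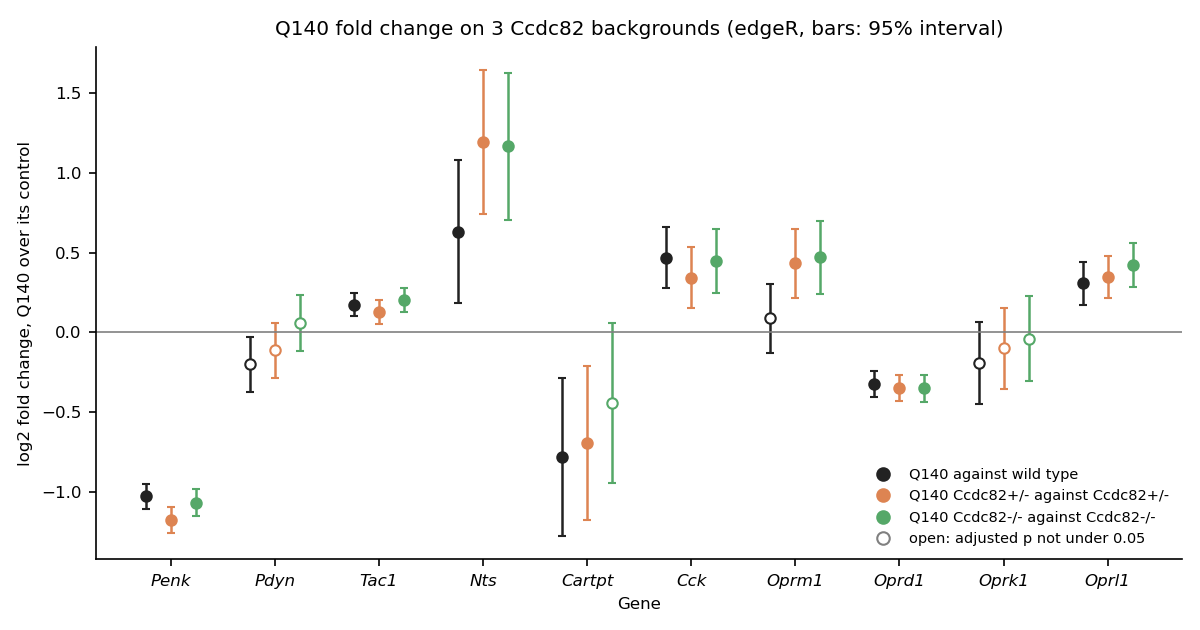
Log2 fold change of Q140 over its control for each gene on the wild type (black), Ccdc82+/- (orange) and Ccdc82-/- (green) backgrounds, with bars for the 95% interval and open circles where the adjusted p was not under 0.05. Penk lies near -1.03 to -1.18 and Oprd1 near -0.32 to -0.35 on all 3, Nts between 0.63 and 1.19, and the intervals of Nts and Cartpt are the widest.

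Ratios of 2 transcripts within a library do not depend on the scaling between libraries and were compared over samples by an exact two-sided permutation test, with adjustment over the 9 tests. The log2 ratio of Penk to Tac1, an indirect over a direct pathway precursor, averaged 1.81 ± 0.15 in Q140 and 3.01 ± 0.05 in wild type (SD, n = 8 each). The difference of -1.2 had an exact permutation p of 0.000155, the smallest this design allows (adjusted p = 0.000233). It was -1.31 on Ccdc82+/- and -1.27 on Ccdc82-/- with the same p values, and on each background no library with Q140 reached the lowest control. Within the indirect pathway, the log2 ratio of Penk to the receptor gene Drd2 averaged 2.34 ± 0.06 in Q140 and 2.82 ± 0.05 in wild type, a difference of -0.48. It differed by -0.56 on Ccdc82+/- and -0.47 on Ccdc82-/-, again with the smallest p the exact test allows on each. Drd2 itself fell by 0.55 on the log2 scale against wild type (edgeR adjusted p = 6.07e-16), so Penk was lower by more than this receptor gene of the same neurons.

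Within the direct pathway, the log2 ratio of Pdyn to Tac1 averaged -1.45 ± 0.21 in Q140 and -1.08 ± 0.13 in wild type (SD, n = 8 each), a difference of -0.37 with an exact permutation p of 0.00124 (adjusted p = 0.0016). On Ccdc82+/- the difference was -0.23 with an exact p of 0.0343 (adjusted p = 0.0386), which 7 of the 16 libraries could each remove when left out. On Ccdc82-/- it was -0.14 and did not pass (exact p = 0.0531, adjusted p = 0.0531). The 3 backgrounds were not tested against each other for these ratios.

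**Figure D4:**
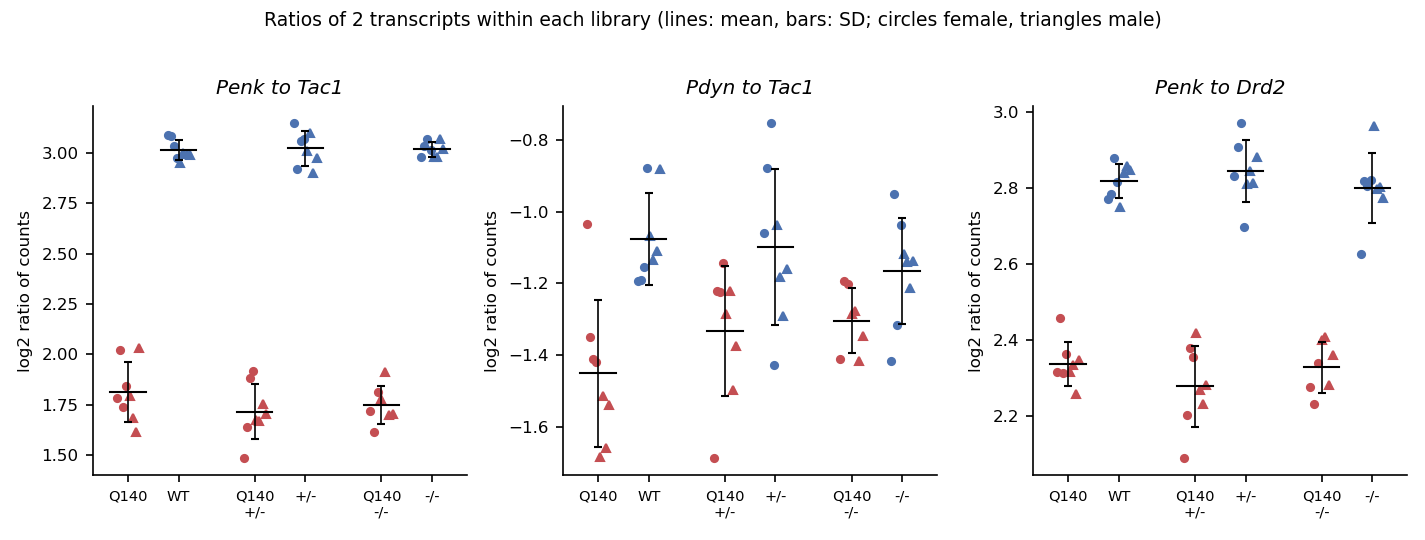
Log2 ratio of the counts of 2 genes in each library by group, with red points for groups with Q140, blue points for groups without it, circles for females, triangles for males, lines at the mean and bars of 1 SD. The Penk to Tac1 and Penk to Drd2 ratios with Q140 lie wholly below those of the controls, while the Pdyn to Tac1 ratios overlap.

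Loss of Ccdc82 itself called none of the 10 genes. In edgeR, Ccdc82+/- and Ccdc82-/- against wild type, and Q140 Ccdc82+/- and Q140 Ccdc82-/- against Q140, each called 1 gene in all, Ccdc82, or 0.00521% of those tested. At an unadjusted p under 0.05 the members numbered 1, 1, 1 and 0 in these comparisons. DESeq2 also called 0 members in each. Oprm1 accounted for the first 2, with 3.33 to 6.29 CPM in Ccdc82+/- (median 4.15) and 3.4 to 5.25 CPM in Ccdc82-/- (median 4.11) against 4.0 to 6.36 CPM in wild type (median 5.55). Its log2 fold changes were -0.24 (95% interval -0.46 to -0.02) and -0.34 (-0.56 to -0.12), with unadjusted p values of 0.0346 and 0.00342 in edgeR and adjusted values of 0.998 and 0.9998. With Q140 present, Oprm1 differed from Q140 by 0.11 (-0.11 to 0.32) in Q140 Ccdc82+/- and by 0.04 (-0.18 to 0.26) in Q140 Ccdc82-/-.

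Penk accounted for the remaining one, with a median of 762 CPM in Q140 Ccdc82+/- against 813 CPM in Q140, a log2 fold change of -0.11 (95% interval -0.19 to -0.03, unadjusted p = 0.00932 and adjusted p = 0.859 in edgeR). The same comparison in Q140 Ccdc82-/- gave -0.05 (-0.13 to 0.04). For Tac1, Oprd1 and Penk the 95% intervals of all 4 Ccdc82 comparisons lay within -0.19 to 0.12. For Nts and Cartpt they reached from -0.75 to 0.83, so that for these scarce genes the data leave a wide span of effects. The interactions of Q140 with Ccdc82+/- and with Ccdc82-/- called 0.0% of genes and 0 members, with 2 members each at an unadjusted p under 0.05 in edgeR and 0 members called in DESeq2. Beside Oprm1, these were Penk at -0.15 (-0.26 to -0.04) with Ccdc82+/- and Pdyn at 0.26 (0.01 to 0.50) with Ccdc82-/- (adjusted p = 0.914 and 0.998).

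Between the sexes, 2 of the 10 genes were higher in females over all genotypes, Cck and Oprm1, and none was lower, where 8.67% of all genes tested were called, 4.64% higher in females and 4.03% lower. Cck was 3.04 to 6.41 CPM in the 23 females with a median of 4.34, against 2.57 to 5.42 CPM in the 24 males with a median of 3.48. The female mean was above the male mean in 6 of 6 genotypes, and the log2 fold change of females over males was 0.34 ± 0.06 (edgeR adjusted p = 0.000105). In wild type the females had 3.92, 3.87, 3.49 and 4.08 CPM and the males 2.90, 3.39, 2.94 and 3.08 CPM, so every wild type female was above every male. Q140 females had 4.24, 5.52, 5.62 and 5.85 CPM and Q140 males 4.75, 4.24, 4.16 and 3.96 CPM, which overlapped through 1 female.

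Oprm1 was 3.4 to 7.95 CPM in females with a median of 5.79, against 3.33 to 6.77 CPM in males with a median of 4.69, and the female mean was again above the male mean in 6 of 6 genotypes. In the fitted model the difference on the log2 scale was 0.26 ± 0.06 (edgeR adjusted p = 0.00814). Wild type females had 5.60, 5.79, 6.36 and 6.30 CPM and wild type males 4.40, 4.0, 4.53 and 5.50 CPM, with no overlap. Oprl1 was -0.09 in females over males with an unadjusted p of 0.0296 and was not called (edgeR adjusted p = 0.152). Cortical excitatory markers summed to 119.5 to 164 CPM in females with a median of 140 and to 131 to 174 CPM in males with a median of 144. With the mean log2 marker level, not the sum, as a covariate, the log2 fold changes of females over males were 0.34 for Cck and 0.26 for Oprm1 (edgeR adjusted p = 0.000114 and 0.00875).

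Whether the Q140 effect itself differed between females and males was tested over the 3 backgrounds, and 0 of the 10 genes and 0.0% of all genes were called in edgeR, with 0 members in DESeq2 also. Oprd1 alone had an unadjusted p under 0.05, at 0.0131, with a difference of -0.11 (95% interval -0.20 to -0.03). Oprd1 averaged 36.7 ± 1.12 CPM in Q140 females and 49.6 ± 2.90 CPM in wild type females, against 39.2 ± 2.47 CPM in Q140 males and 45.3 ± 0.80 CPM in wild type males (SD, n = 4 each). For Cck the difference was -0.02 (-0.26 to 0.22) and for Oprm1 -0.05 (-0.31 to 0.21).

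**Figure D5:**
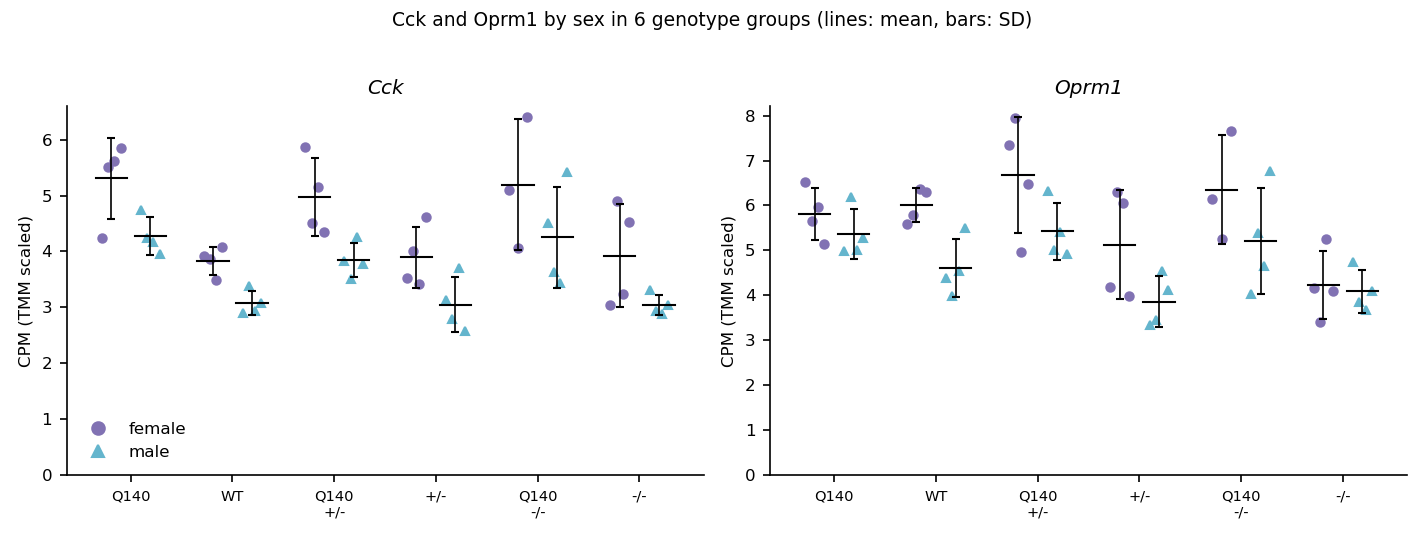
CPM of Cck and Oprm1 in females (circles) and males (triangles) of each genotype on axes that start at 0, with lines at the mean and bars of 1 SD (n = 3 or 4). The female mean lies above the male mean in all 6 genotypes for each gene, and single libraries of the sexes overlap except in wild type for both genes and in Q140 Ccdc82+/- for Cck.

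The members differed in how much they varied between libraries of 1 group and sex. What edgeR calls the biological coefficient of variation was 5.13% for Tac1, 5.41% for Oprd1 and 5.61% for Penk, beside a median of 6.75% over all genes. It was 8.64% for Oprl1, 11% for Pdyn, 11.7% for Cck, 13.8% for Oprm1 and 16.4% for Oprk1. Nts at 28.5% and Cartpt at 29.4% varied most, and Cartpt had the lowest counts of the 10.

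Across the 47 libraries, after group and sex were taken out, the members did not move as 1 block. As a description over points that share their library, the highest correlation of residuals between members was 0.474 for Pdyn and Nts, followed by 0.446 for Cartpt and Oprm1, and the lowest were -0.515 for Pdyn and Oprd1 and -0.467 for Oprd1 and Oprl1. Penk and Tac1 had r = 0.172 and Penk and Oprd1 r = 0.133, so Penk and Oprd1, which both fell with Q140, had a low correlation within groups. Penk moved with the mean log2 level of the spiny neuron markers and with that of the indirect pathway markers (r = 0.538 for each). Oprk1 moved against the mean log2 levels of the interneuron (r = -0.608) and thalamus markers (r = -0.558).

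By the same measure, the gene most like Penk was Arpp21 (r = 0.753), which codes for a phosphoprotein of spiny neurons. Pdyn was most like Dpp10 (0.748), Tac1 most like Mmd (0.722) and then Six3 (0.708), a transcription factor of striatal development. Nts was most like Ttc1 (0.712) and Cck most like Smap1 (0.614). The dopamine D3 receptor gene Drd3 was the gene most like Cartpt (0.675) and the third most like Oprm1 (0.687), after Dock11 (0.726). Oprd1 was most like Lrrc10b (0.667), Oprk1 most like Arglu1 (0.842) and Oprl1 most like Thtpa (0.799). These values are the top of 13893 genes searched for each member, so their height comes in part from the search, and they are a description only.

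The other genes of these pathways were read as lists, each by its counts in Q140 averaged over the 3 backgrounds, where 54.3% of all genes were called and the median log2 fold change was 0.00. Of 19 genes for peptide processing and dense core vesicles, 7 were higher, 7 were lower and 5 were not called, with a median of 0.03. Scg5, the chaperone of the convertase PC2, was higher at 0.22 ± 0.02, and Pcsk2, which codes for that convertase, was lower at -0.18 ± 0.02 (edgeR adjusted p = 7.72e-16 and 2.48e-12). The granule protein gene Chgb was lower at -0.22 ± 0.02 and the vesicle priming gene Cadps higher at 0.23 ± 0.03 (edgeR adjusted p = 1.09e-11 and 4.77e-09). Pcsk1, the convertase PC1/3, was named after its values were seen, with the largest rise of the list at 0.56 ± 0.08 (edgeR adjusted p = 5.77e-08). It rose on each background, by 0.51, 0.57 and 0.60.

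Of 12 peptide degrading enzymes, 6 were higher, 5 lower and 1 not called, with a median of 0.00. Ece2, an endothelin converting enzyme that can also cleave opioid peptides, was higher at 0.57 ± 0.03, and Ace, the angiotensin converting enzyme of striatonigral neurons that can degrade enkephalins, was lower at -0.63 ± 0.05 (edgeR adjusted p = 1.10e-20 and 8.08e-14). The oligopeptidases Nln and Thop1 were at 0.15 ± 0.02 and -0.09 ± 0.02 (edgeR adjusted p = 4.24e-09 and 2.56e-06). The direction of each of these 4 enzymes was the same on all 3 backgrounds.

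Of 8 receptors for tachykinins, neurotensin and cholecystokinin, 6 passed the filter on low counts, and of these 5 were lower, none was higher and 1 was not called, with a median of -0.18. The neurotensin binding genes Sort1, Ntsr1 and Ntsr2 fell by 0.19, 0.47 and 0.17 (edgeR adjusted p = 2.71e-17, 4.68e-06 and 4.97e-06), while their peptide precursor Nts was higher. Tacr1, the substance P receptor carried by striatal interneurons, fell by 0.08, while Tac1 was higher (edgeR adjusted p = 0.000305 for Tacr1).

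Of 22 tested genes that couple opioid receptors to their effectors, 6 were higher, 11 lower and 5 not called, with a median of -0.09. The 4 with the smallest p were the adenylyl cyclase Adcy5 at -0.66 ± 0.02 and the regulators of G protein signalling Rgs9 at -0.63 ± 0.02, Rgs14 at -0.94 ± 0.03 and Rgs4 at -0.64 ± 0.03 (edgeR adjusted p = 1.82e-31, 1.18e-28, 2.75e-26 and 2.42e-20). Adcy5 and Rgs9 are also among the markers of spiny neurons, whose 8 genes were all lower. Of 36 other neuropeptide precursors, 19 were tested, with 1 higher, 5 lower and 13 not called. Crh, the corticotropin releasing hormone gene, was lower at -0.97 ± 0.16, Nppc at -0.54 ± 0.11 and Nucb2 at -0.18 ± 0.03 (edgeR adjusted p = 1.11e-06, 3.79e-05 and 6.35e-07). Prok2 was higher at 0.51 ± 0.14 (edgeR adjusted p = 0.00222), although it passed on the Ccdc82-/- background alone among the 3.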

How the data were processed

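RNA was extracted from dissected striatum with Qiagen RNeasy kits and made into TruSeq stranded libraries, per the labels' protocols. STAR 2.7.5c, SAMtools 1.10, HTSeq 0.12.3 and the GRCm38 (mm10) build are named in the submitters' processing notes. The authors deposited whole-number read counts per gene with no normalization, and FPKM values scaled by gene length and library. Whether counting used strand, and the annotation release, are not given in the sources used here.

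From the deposited counts, low genes were removed with filterByExpr, libraries were scaled by TMM, and group with sex was fitted over all 47 libraries with the robust quasi-likelihood test of edgeR 4.0.16 (R 4.3.3), adjusted by Benjamini-Hochberg over 19193 genes. The sex difference of the Q140 effect used a fit of group by sex over 19714 genes. The 95% intervals came from the same fits. CPM of single genes is TMM-scaled, and summed marker CPM is per total count. Ratios used counts plus 0.5 and an exact two-sided permutation test over libraries. Likeness was the Pearson correlation of log2 CPM residuals among the 13893 genes whose average log2 CPM reached 1. The main edgeR fit was tried on simulated counts for Q140 against wild type alone, and the permutation test on a made-up case with a known answer. The other steps were not simulated. No 2 libraries held identical values.

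All 10 members were named. From each pathway list up to 4 called genes with the smallest p in the averaged Q140 comparison were named, and the 3 most alike genes per member were computed. The members and lists were chosen with earlier results of these data known. The labels number replicates without stating that each is a separate animal, so p-values measure the spread between these samples, which may be technical. Alternatives were RLE size factors, DESeq2 1.42.0, voom with quality weights in limma 3.58.1, no filter, no sex term, a replicate block, plate column, each sex alone, the compared groups alone, log2(FPKM + 0.1), cortical markers as a covariate and leaving out each library. Choroid plexus and ventral striatum covariates were chosen after seeing the data.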

Additional observations from a re-analysis of the deposited data

Results flagged for a closer look

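In 6 of the 60 combinations of gene and group, 1 library stood away from the rest of its group by Dixon's test at the 95% level, which chance flags in about 1 of 20 groups. Pdyn was highest of 8 in Q140 female 1, at 108.5 CPM. The same library had the lowest Cartpt of the Q140 group, at 0.2375 CPM. Nts was highest in wild type male 1, at 5.153 CPM, and in Ccdc82+/- female 2, at 3.38 CPM. Oprk1 was lowest in Ccdc82+/- female 4, at 25.26 CPM. Oprl1 was lowest of the Q140 group in Q140 male 4, at 18.23 CPM. Summed choroid plexus markers were 67.7 CPM in wild type male 1 and 43.9 CPM in Ccdc82+/- female 2, and their part in these Nts values was not tested library by library.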

How the results depend on the processing

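The calls of Penk and Oprd1 on every background kept their direction and side of the threshold under all alternatives run. Over the alternatives other than leaving out 1 library, the members called numbered 5 to 8 against wild type, 6 to 8 on Ccdc82+/-, 6 to 8 on Ccdc82-/- and 8 averaged. Replicate numbers were not taken to pair samples, since same-numbered libraries of different groups had residual correlations of -0.348 to 0.297 with a mean of -0.03. With a replicate block the members called numbered 7, 8, 7 and 8, as without it. The block also ended the call for the Pdyn to Tac1 ratio on Ccdc82+/- (-0.23, exact p = 0.0625), and no other.

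The Pdyn to Tac1 difference against wild type was -0.20 in females (exact p = 0.143). On Ccdc82+/- it was -0.29 in females and -0.18 in males (exact p = 0.2 and 0.0857), and on Ccdc82-/- -0.18 in males (exact p = 0.0286). Leaving out 1 library gave -0.28 to -0.18 on Ccdc82+/- and -0.17 to -0.11 on Ccdc82-/-, where 4 of 15 omissions passed the test.

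Signs turned for genes not called: Oprm1 against wild type in females (-0.0451), Oprk1 on Ccdc82+/- in females (0.0435), Pdyn on Ccdc82-/- in males (-0.0219), and Oprk1 on Ccdc82-/- by voom (0.0426), FPKM (0.0399), in males (0.0536) and over omissions (-0.113 to 0.0318). Nts against wild type lost its call with plate column (adjusted p = 0.0711), in the compared groups alone (0.0884) and in either sex alone (0.126 in females, 0.247 in males). Cartpt lost it against wild type with plate column (0.0595), on Ccdc82+/- with FPKM (0.0584), and in males alone against wild type (0.268), on Ccdc82+/- (0.524) and averaged (0.0594). In 1 sex alone, calls were also lost for Oprl1, Tac1, Cck and Oprm1, and Tac1 on Ccdc82+/- lost its call in the compared groups alone (0.0519). Pdyn against wild type gained a call in DESeq2 (0.0404), in the compared groups alone (0.0243) and without any of 4 single libraries. It also gained one there with the ventral striatum covariate (0.0164). Averaged over the backgrounds, Pdyn was called lower in males alone (-0.16, edgeR adjusted p = 0.000104) and without Ccdc82+/- female 4 (-0.10, edgeR adjusted p = 0.0496). Over these settings, 704 values of single members stayed on their side of the threshold, 16 lost a call, 6 gained one and 6 turned sign. Of the remaining values, none of them called, 657 kept their sign and 51 turned. The causes were not tested. Cartpt, at 13 to 104 counts per library, had the least depth of the 10.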
